A study of Mus musculus with 6 samples.

Results

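The epidermal differentiation complex is a cluster of genes on mouse chromosome 3 whose products build the outer, cornified layer of the skin. Its genes were taken here by symbol: every gene whose name starts with S100a, Sprr or Lce, together with Lor, Ivl, Flg, Flg2, Hrnr, Rptn, Crnn, Crct1, Kprp, Lelp1, Pglyrp3 and Pglyrp4. This gave 62 of the 35275 genes listed, all 62 of them on chromosome 3 of the mm10 genome between bases 90511034 and 93564643, a stretch of 3.05 Mb. They comprised 14 S100a genes, 16 Sprr genes, 13 Lce1 genes, 6 Lce3 genes, 5 genes of the fused S100 type (Flg, Flg2, Hrnr, Rptn and Crnn) and 8 single genes, among which Lce6a was counted.

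RNA had been sequenced from the epithelial part of the back skin of C57BL/6 mice, in 3 libraries of mice that lack interleukin-33 (genotype IL-33 KO) and in 3 libraries of wild-type controls (WT). Interleukin-33, a cytokine of the interleukin-1 family, is stored in epithelial nuclei until cells are damaged. Mice of both genotypes had been painted with 0.25% dinitrofluorobenzene (DNFB), a contact allergen, in acetone and olive oil, 3 times a week for 22 days. Both groups were therefore DNFB-treated skin, and no untreated skin was compared. The knockout allele and the ages of the mice are not given in the sources used here, nor do the labels tie each library to its own animal, so every p-value below reflects how much these libraries vary and that variation may be technical.

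A keratinocyte that leaves the basal layer first makes involucrin and keratins 1 and 10, and later loricrin, filaggrin and the small proline-rich and late cornified envelope proteins. Transglutaminases cross-link these proteins into the cornified envelope, while filaggrin bundles keratin and is then broken down to compounds that hold water. S100 proteins bind calcium, and several of them, as well as the small proline-rich and Lce3 proteins, are known to be made in larger amounts in inflamed or wounded epidermis.

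Total counts were 20459574 to 24359612 per library. Il33 had 11 to 22 counts in the IL-33 KO libraries and 2817 to 3906 in the WT libraries, with a log2 fold change of IL-33 KO over WT of -7.54 ± 0.32 (SE) and an adjusted p of 0.000176, so the deleted gene matched the genotype labels. The labelled tissue was checked against keratinocyte genes: the 8 basal genes summed to 22362 to 41907 CPM (counts scaled to the library size) and the 7 suprabasal genes to 11232 to 35076 CPM. Other tissue was present too, with fibroblast markers at 11940 to 22821 CPM. Skeletal muscle markers summed to 135, 13.9 and 276 CPM in IL-33 KO 1, 2 and 3, against 10.2, 12.3 and 10.7 CPM in WT. Adipocyte markers summed to 1067, 785 and 769 CPM in IL-33 KO, against 195, 814 and 542 CPM in WT, in replicate order. The part of unequal tissue content in the values below was not tested. Of the 62 genes of the complex 58 had enough counts to be tested, with at least 38 counts in every library, and S100a2, S100a5, Sprr3 and Lelp1 did not, with at most 27 counts over the 6 libraries.

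Most genes of the complex had a lower mean in IL-33 KO than in WT skin, and none passed the test. Of the 58 tested, 54 had a log2 fold change below 0 and 4 above it, where 52.0% of all 15720 tested genes were below 0. Their median log2 fold change was -0.88, beside -0.01 over all tested genes. With edgeR's quasi-likelihood test and Benjamini-Hochberg adjustment over all tested genes, 0 of the 58 passed an adjusted p of 0.05, and 0.0191% of all tested genes (3 genes) did. At an unadjusted p under 0.05, 21 were lower (4.15% of all genes) and 2 were higher (4.87% of all genes). The smallest adjusted p among them was 0.365. RNA from bulk skin was measured, so fewer cells of a type and less RNA per cell cannot be told apart.

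The 3 WT libraries did not lie together. Of all counts the complex took 1.15%, 1.43% and 1.51% in the knockout libraries 1, 2 and 3, against 2.83%, 2.31% and 1.22% in the wild-type libraries 1, 2 and 3. WT 1 and WT 2 stood above the 3 IL-33 KO libraries and WT 3 lay among them. WT 3 was the lowest WT library in 48 of 58 genes (82.8%, beside 33.8% of all tested genes), and it was below at least 1 IL-33 KO library in 56, an order that 11768 of all 15720 tested genes also had. The 3 IL-33 KO libraries were all below the 3 WT libraries in 1 gene, S100a4, where 6.47% of all genes had this order. They were all above in 2 genes, S100a3 and Crnn, where 7.46% of all genes did.

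WT 1 and WT 2 were both above the 3 IL-33 KO libraries in 45 of the 58 genes, where 18.3% of the genes tested without WT 3 had that order. In the fit without WT 3, edgeR's adjusted p passed for 3 genes of the complex, at a background of 0.150% of genes: Sprr2b (-2.25 on the log2 scale, adjusted p = 0.0451), Sprr2a3 (-1.79, adjusted p = 0.0445) and Lce1k (-2.02, adjusted p = 0.0404). Without WT 3, 54 of the 58 genes were again below 0, with medians of -1.72 in Lce1 and -1.84 in Lce3 genes. Each library was left out in turn, and leaving out any of the other 5 gave 0 calls in the complex. The fit without WT 3 is given because of that library's values, so its calls are no separate evidence. DESeq2 on all 6 libraries called 6 genes of the complex, at a background of 1.31% of genes: lower Lce1l (adjusted p = 0.00535), Lce1k (0.0104), Sprr2a3 (0.0215), Lce1c (0.0406) and S100a4 (0.0492), and higher Crnn (0.0109). Lce1c is named for that call, after its values were seen.

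**Figure D1:**
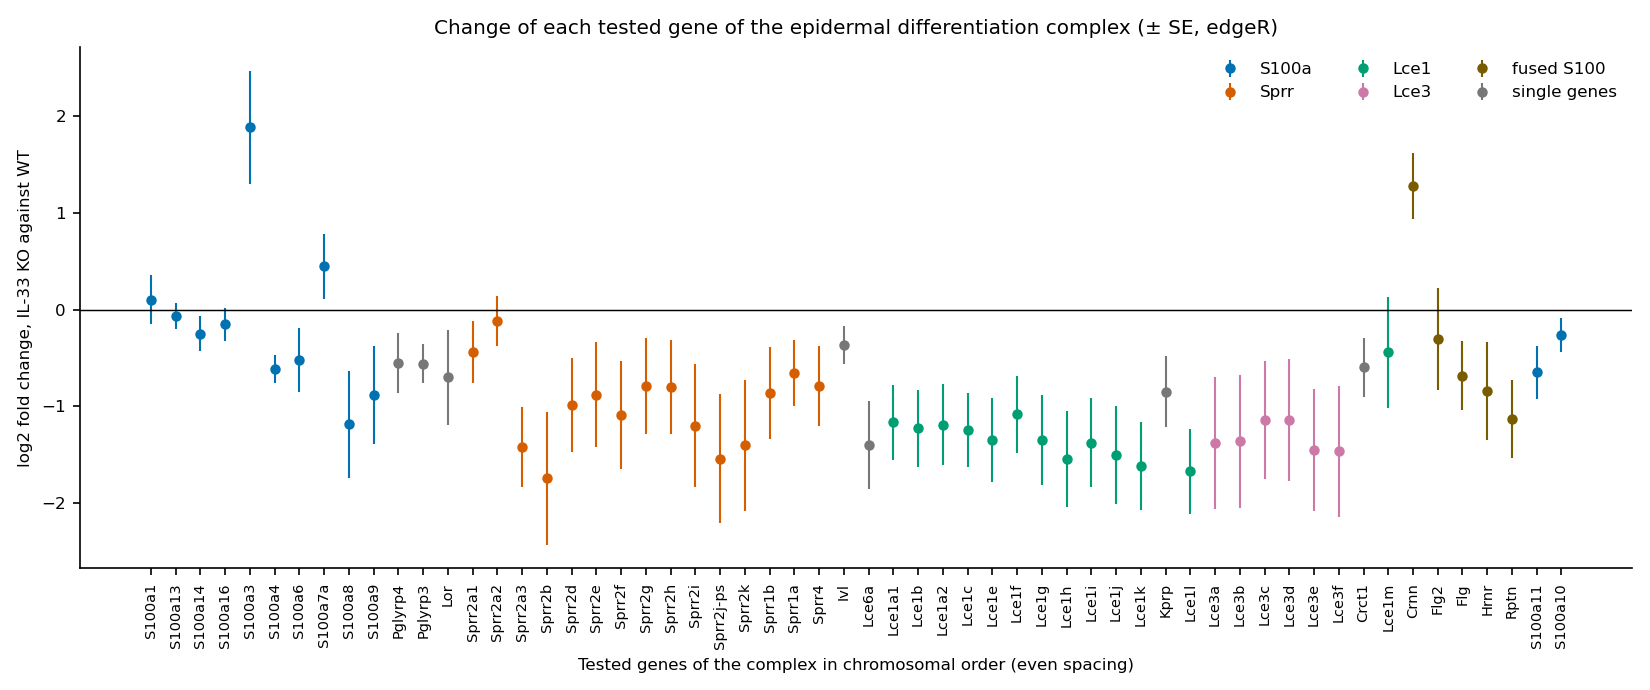
Log2 fold change of IL-33 KO over WT for each of the 58 tested genes of the complex (vertical axis, bars are the SE), coloured by subfamily. Genes are placed in chromosomal order with even spacing (horizontal axis). In 54 of 58 genes the point lies below 0; S100a3 at 1.89 and Crnn at 1.28 are the highest points.

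**Figure D2:**
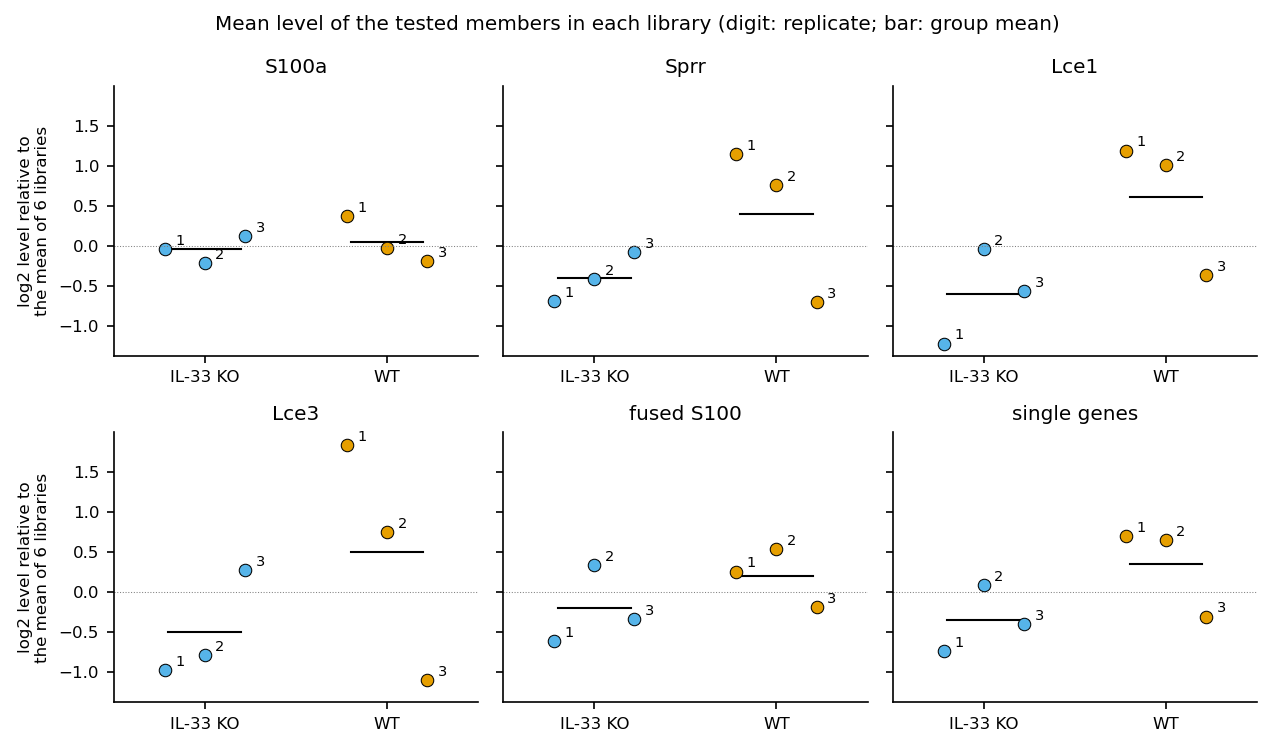
Mean log2 CPM of the tested genes of each subfamily in each library, relative to the mean of that gene over the 6 libraries (vertical axis), for IL-33 KO 1 to 3 and WT 1 to 3 (digits), with the mean of each genotype as a bar. WT 3 lies below WT 1 and WT 2 in every subfamily drawn, and the Lce3 points span the widest range, from -1.10 in WT 3 to 1.85 in WT 1.

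The plot in chromosomal order shows that the lower means were spread along the order of the genes, and the plot of subfamily levels shows the position of each library. The median log2 fold change was -1.37 in the Lce3 genes, -1.34 in the Lce1 genes, -0.88 in the Sprr genes, -0.68 in the fused S100 genes, -0.60 in the single genes and -0.25 in the S100a genes. This order depended on the libraries used. Without WT 1 the medians were -0.45 in Lce3, -1.05 in Lce1, -0.45 in Sprr and -0.66 in fused S100 genes. Without IL-33 KO 2 they were -1.15 in Lce3, -1.56 in Lce1, -0.96 in Sprr and -1.18 in fused S100 genes. The Lce3 median was also nearer 0 than the Lce1 median in limma-voom and in limma-trend on log2(FPKM + 1) (-0.91 against -1.11). All tested Lce1, Lce3, Sprr and single genes were below 0, as were 4 of 5 fused S100 genes and 9 of 12 S100a genes. Of the 21 lower genes at an unadjusted p under 0.05, 12 were Lce1 genes and 0 were Lce3 genes.

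The sequences just before the start sites are printed for genes of the Lce1, Lce3 and Sprr2 groups because they show how the promoters of these groups differ. RefSeq start sites of GRCm38.p6 were matched by symbol for 52 of the 62 genes, with 56 windows of 250 bases before to 50 bases after the start, beside 32851 such windows over all genes. The 50 bases that end just before the start are printed 5′ to 3′ on the strand of the gene, with capitals for the TATA box (TATAAA), for a relative of it that is called the A-rich box here and spelled ATAAAA, or for both where they overlap.
Lce1b: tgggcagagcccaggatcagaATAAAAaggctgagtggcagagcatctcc
Lce1l: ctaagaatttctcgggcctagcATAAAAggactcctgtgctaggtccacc
Lce1m: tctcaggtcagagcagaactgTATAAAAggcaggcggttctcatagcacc
Lce3c: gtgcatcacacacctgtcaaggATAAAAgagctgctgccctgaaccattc
Lce3f: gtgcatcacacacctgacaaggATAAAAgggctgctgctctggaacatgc
Sprr2b: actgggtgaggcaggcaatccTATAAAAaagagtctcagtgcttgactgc
Sprr2d: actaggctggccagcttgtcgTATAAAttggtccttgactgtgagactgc
These windows lie at chr3:92656927-92656976 (minus strand) for Lce1b, chr3:92851287-92851336 (minus) for Lce1l, chr3:93019062-93019111 (minus) for Lce1m, chr3:92944436-92944485 (plus) for Lce3c, chr3:92992167-92992216 (plus) for Lce3f, chr3:92316655-92316704 (plus) for Sprr2b and chr3:92339090-92339139 (plus) for Sprr2d.

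In the stretch from 40 to 20 bases before the start, on the strand of the gene, the TATA box was present in 1.99% of all promoters. It was present there in 7 of 10 Sprr2 promoters, in 3 of 5 fused S100 promoters, in 1 of 12 Lce1 promoters (Lce1m) and in 0 of 6 Lce3 promoters. The A-rich box without the TATA box, a form searched for after these sequences had been read, was present in that stretch in 0.874% of all promoters, in 10 of 12 Lce1 promoters, in 5 of 6 Lce3 promoters and in 0 of 14 Sprr promoters. Any TATA box that is followed by a further A also holds the A-rich box. Lce1m, with the TATA box, also had its highest value in an IL-33 KO library, unlike the other Lce1 genes. This rests on a single library, IL-33 KO 2, and was seen after the values were known. A link between the box and the expression of these genes was not tested.

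TGANTCA, the letters bound by AP-1 factors (dimers of Fos and Jun proteins), was searched on both strands of the whole windows and was present in 7.81% of all promoters and in 17 of the 56 windows of the complex. It was present in 7 of 10 Sprr2 promoters, in 4 of 5 fused S100 promoters, and in 0 of 12 Lce1 and 0 of 6 Lce3 promoters. The Sprr2 promoters without it were those of Sprr2a1, Sprr2a2 and Sprr2a3, and the windows of Sprr2a1 and Sprr2a2 are 100% identical. The RefSeq windows of Sprr2a3 (from base 92285054) and Flg2 (from base 93197023) lie before the counted genes, which start at 92288569 and 93200210. Those of Sprr2a2 (from base 92250397) and Lce1a2 (from base 92670266) lie inside the counted genes, at 92215920-92257298 and 92668613-92687210. The S100a3 windows from bases 90584409, 90586702 and 90588313 lie before the counted gene, which starts at 90600215. Rptn and Crnn, whose means differed in opposite directions, both held TGANTCA 96 bases before the start. The 250 bases before the start are printed for both and for Sprr2d, with capitals for the AP-1 letters and for both boxes.
Rptn: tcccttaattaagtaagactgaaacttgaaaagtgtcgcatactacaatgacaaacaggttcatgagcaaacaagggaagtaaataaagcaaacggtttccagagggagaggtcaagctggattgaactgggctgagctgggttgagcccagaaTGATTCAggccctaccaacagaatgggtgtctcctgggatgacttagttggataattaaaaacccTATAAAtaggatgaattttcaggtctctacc
Crnn: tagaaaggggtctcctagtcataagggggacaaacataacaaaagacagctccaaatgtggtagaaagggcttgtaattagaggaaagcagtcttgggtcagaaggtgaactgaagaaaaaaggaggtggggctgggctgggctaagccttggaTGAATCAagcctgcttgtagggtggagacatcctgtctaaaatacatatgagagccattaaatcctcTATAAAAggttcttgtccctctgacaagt
Sprr2d: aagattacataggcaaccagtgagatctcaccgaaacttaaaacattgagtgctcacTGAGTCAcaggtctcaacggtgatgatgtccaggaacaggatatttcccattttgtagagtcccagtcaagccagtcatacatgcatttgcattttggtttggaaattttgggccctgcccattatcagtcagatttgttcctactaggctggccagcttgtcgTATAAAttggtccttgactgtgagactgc
They lie on the plus strand at chr3:93393449-93393698 for Rptn, chr3:93144539-93144788 for Crnn and chr3:92338890-92339139 for Sprr2d. In Sprr2d the AP-1 match begins 193 bases before the start and the TATA box begins 29 bases before it.

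Other motifs were searched on both strands of the same windows. The Grainyhead-like letters AACCNGTT were in 3 of 56 windows of the complex (2.09% of all promoters). The C/EBP letters TTGCNNAA were in 6 of 56 (10.8% of all) and the KLF letters CCACACCC in 1 of 56 (3.56% of all). The NF-kB letters in the spelling GGGANTTCC were in 0 of 56 (1.68% of all), and other spellings were not searched. These matches describe letters in the windows and are not measured binding sites.

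**Figure D3:**
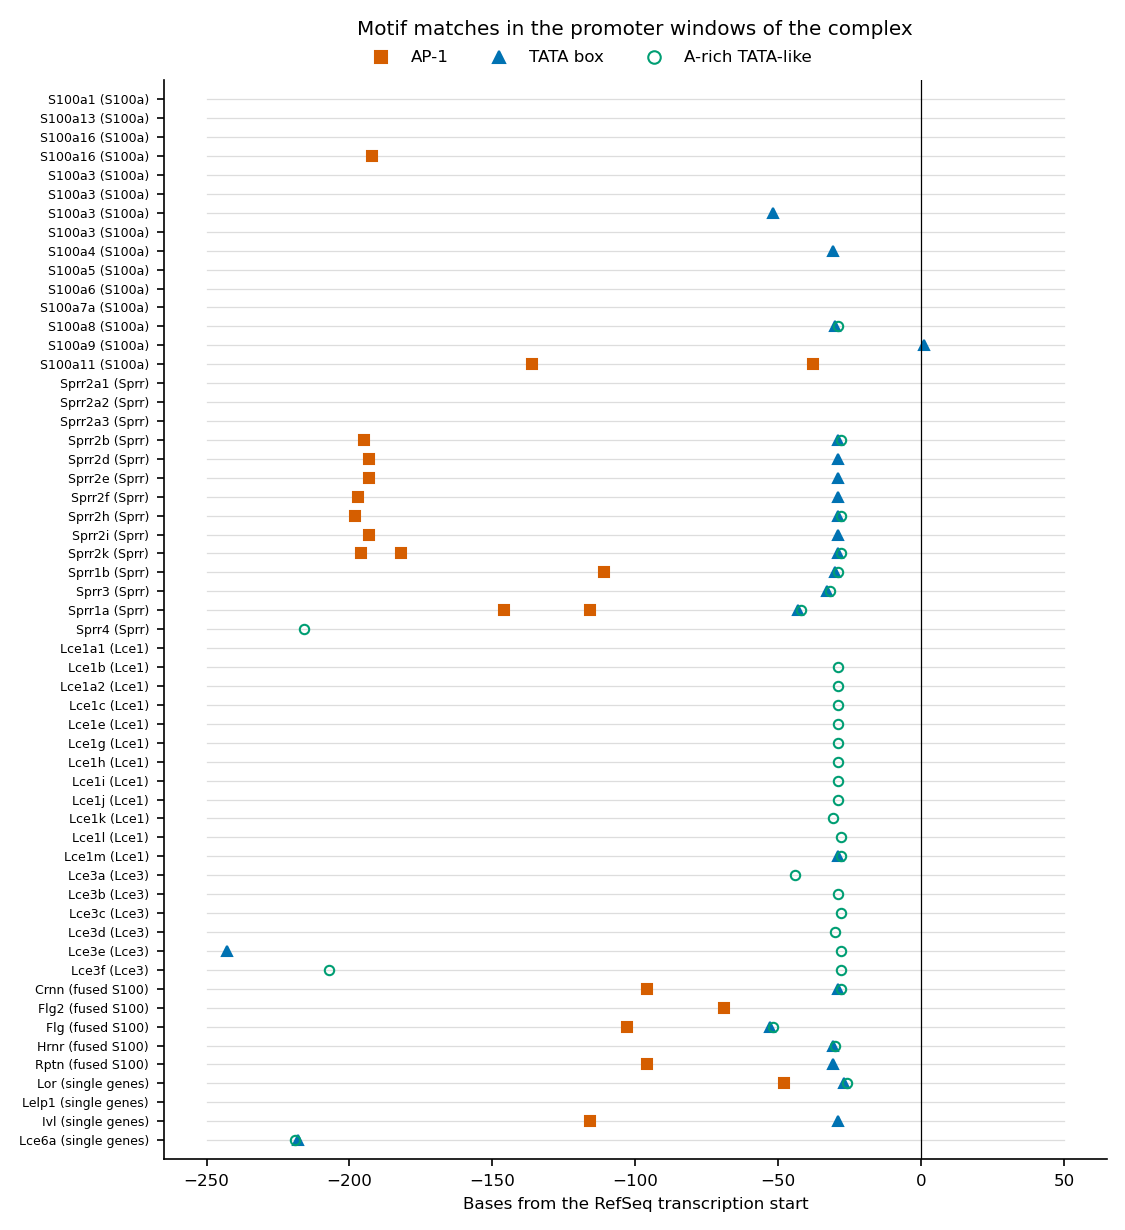
Matches to the AP-1 letters (squares), the TATA box (triangles) and the A-rich box (open circles, TATA-like) in each of the 56 promoter windows of the complex (rows), by distance in bases from the start site (horizontal axis, negative before the start). The TATA and A-rich boxes of the Sprr2, Lce1 and Lce3 genes mostly line up shortly before the start, and the AP-1 matches of the Sprr2 genes line up from 198 to 182 bases before it.

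S100a genes are described first. Per length, S100a9 and S100a8 were the most abundant genes of the complex, with a mean FPKM of 2974 and 2740 over the 6 libraries, the 14th and 17th highest of all listed genes. Their products form calprotectin, a zinc- and manganese-binding alarmin that neutrophils carry and stressed keratinocytes make. S100a8 had 558, 705 and 767 CPM in the knockout libraries 1, 2 and 3, against 3033, 1063 and 519 CPM in the wild-type libraries 1, 2 and 3. S100a9 had 815, 1039 and 1488 CPM in the knockout libraries 1, 2 and 3, against 3802, 1483 and 868 CPM in the wild-type libraries 1, 2 and 3. WT 1 was far above the other libraries for both, and the genotypes overlapped. The log2 fold change was -1.19 ± 0.55 (SE) for S100a8 (adjusted p = 0.576) and -0.88 ± 0.50 for S100a9 (adjusted p = 0.622), and without WT 1 these became -0.22 and -0.076.

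Markers of neutrophils were taken beside these alarmins. Of the 12 neutrophil markers, 10 were tested, 4 higher and 6 lower in IL-33 KO, and they summed to 246, 427 and 485 CPM in the knockout libraries 1, 2 and 3, against 596, 188 and 278 CPM in the wild-type libraries 1, 2 and 3. WT 1 was highest and WT 2 lowest in that sum, while WT 2 was the second highest library for S100a8. The granule genes Mpo and Elane, defining for neutrophil precursors, had 0 to 6 counts and 0 to 9 counts per library. The part of neutrophils in the S100a8 and S100a9 values was not tested.

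S100a3, which codes for a protein of the hair cuticle, was the gene of the complex with the largest positive difference. It had 472, 222 and 305 CPM in the knockout libraries 1, 2 and 3, against 80.0, 26.3 and 164 CPM in the wild-type libraries 1, 2 and 3. Every IL-33 KO library was above every WT library, and WT 3 was the highest WT library. The log2 fold change was 1.89 ± 0.58 (adjusted p = 0.465). Each of the 17 tested hair follicle markers had a higher mean in IL-33 KO skin, and 16 showed no overlap (beside 7.46% of all tested genes). The hair follicle markers summed to 22668, 11424 and 10948 CPM in the knockout libraries, against 3868, 2775 and 6208 CPM in the wild-type libraries. IL-33 KO 1 had the highest and WT 2 the lowest value for both S100a3 and that sum, and the part of follicle content in the S100a3 difference was not tested.

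S100a4, a protein of motile mesenchymal and immune cells, was the gene with the smallest adjusted p of the complex. Its values were 56.3, 64.2 and 78.7 CPM in the knockout libraries, against 106, 93.3 and 105 CPM in the wild-type libraries, in replicate order. No IL-33 KO value reached the lowest WT value. Its log2 fold change was -0.61 ± 0.15 (adjusted p = 0.365). Of its 50-base transcript windows 47.4% also occur in Gm42674, so reads may have been divided between these genes. Of 8 fibroblast markers, 7 were lower and 1 higher in IL-33 KO, and their sum was 11940 to 13979.9 CPM in the knockout libraries, against 12652, 14760 and 22821 CPM in WT 1, 2 and 3. S100a4 was not higher in WT 3 than in WT 1. Of 8 mast cell markers, 7 were lower in IL-33 KO, 4 of these without overlap (beside 6.47% of all tested genes). The 8 markers had a median log2 fold change of -0.47. Their sum was 316, 249.8 and 245 CPM in the knockout libraries and 302, 363 and 384 CPM in the wild-type ones. Of 9 macrophage and monocyte markers 8 were lower, with sums of 656 to 801 CPM in the knockout libraries and 745 to 953 CPM in the wild-type ones. The part of fibroblasts, mast cells and macrophages in the S100a4 difference was not tested.

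S100a11, an annexin partner that is built into the envelope, and S100a6, a calcium sensor of dividing and mesenchymal cells, followed S100a9 and S100a8 in abundance among the S100a genes, with mean FPKM of 1411 and 947. S100a11 read 531, 469 and 709 CPM in the knockout libraries, against 1086, 1037 and 557 CPM in the wild-type libraries, in replicate order. S100a6 read 635, 339 and 726 CPM in the knockout libraries, against 997, 914 and 519 CPM in the wild-type libraries, in replicate order. Both were high in WT 1 and WT 2 and lower in WT 3, which lay within the IL-33 KO range. The log2 fold changes were -0.65 ± 0.28 (adjusted p = 0.547) and -0.52 ± 0.33 (adjusted p = 0.657), and 41.1% of the S100a11 windows also occur in Gm12854. The other tested S100a genes, S100a1, S100a7a, S100a10, S100a13, S100a14 and S100a16, had log2 fold changes from -0.26 to 0.45, and of these S100a7a (0.45) and S100a1 (0.11) were above 0. These 6 fall outside the naming rule and are named here after their values were seen.

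Small proline-rich proteins act as cross-bridges between other envelope proteins. All 15 tested Sprr genes were below 0, from -1.74 to -0.12 on the log2 scale, and 0 of 15 passed. Sprr1a and Sprr1b were the most abundant per length, with mean FPKM of 1820 and 1121. Sprr1a had 1266, 1016 and 1189 CPM in the knockout libraries 1, 2 and 3, against 2618, 1929 and 928 CPM in the wild-type libraries 1, 2 and 3. Sprr1b had 463, 584 and 964 CPM in the knockout libraries 1, 2 and 3, against 1817, 1369.8 and 459 CPM in the wild-type libraries 1, 2 and 3. In both, WT 1 was highest and WT 3 lowest. Their log2 fold changes were -0.66 ± 0.34 (adjusted p = 0.600) and -0.86 ± 0.48 (adjusted p = 0.617).

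The 12 Sprr2 genes had a median log2 fold change of -1.04. Sprr2d, the most abundant of them, had 165, 230.1 and 319 CPM in the knockout libraries 1, 2 and 3, against 715, 534 and 162 CPM in the wild-type libraries 1, 2 and 3. Its WT 3 value was below all 3 IL-33 KO values. Sprr2b was 14.8, 14.6 and 25.7 CPM in the knockout libraries, against 74.1, 100.2 and 9.90 CPM in the wild-type libraries, in replicate order, and here WT 3 was the lowest library while WT 1 and WT 2 stood above every IL-33 KO library. Sprr2a3 was 48.8, 32.2 and 35.4 CPM in the knockout libraries, against 120.2, 149 and 42.0 CPM in the wild-type libraries, in replicate order, with WT 3 inside the IL-33 KO range. The log2 fold changes were -0.98 ± 0.49 for Sprr2d (adjusted p = 0.587), -1.74 ± 0.69 for Sprr2b (adjusted p = 0.531) and -1.42 ± 0.41 for Sprr2a3 (adjusted p = 0.440).

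Sprr4 did not follow the library order of Sprr2d. It had 217, 223 and 90.6 CPM in the knockout libraries 1, 2 and 3, against 206, 477 and 236 CPM in the wild-type libraries 1, 2 and 3, so WT 2 was highest and IL-33 KO 3 lowest, and its log2 fold change was -0.79 ± 0.41 (adjusted p = 0.602). Sprr2a1 and Sprr2a2 overlap by 6566 bases on 1 strand and share 96.3% and 96.5% of their windows with other genes, and Sprr2a3 shares 61.1%, so the division of reads among these 3 genes is uncertain. Sprr2a1 and Sprr2a2 had the lowest mean FPKM of the tested genes, 1.07 and 1.16, and their log2 fold changes were -0.44 and -0.12. They are named for this overlap.

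Late cornified envelope proteins of the Lce1 group are added to the envelope near the end of differentiation. All 13 Lce1 genes were below 0, from -1.67 to -0.44 on the log2 scale, and 12 of 13 had an unadjusted p under 0.05, while 0 passed after adjustment. Lce1a2, the most abundant per length (mean FPKM 397), had 109, 254 and 171 CPM in the knockout libraries 1, 2 and 3, against 526, 498 and 193 CPM in the wild-type libraries 1, 2 and 3. Lce1l, with the smallest p of the group, had 11.8, 29.2 and 17.0 CPM in the knockout libraries, against 79.3, 76.6 and 28.8 CPM in the wild-type libraries, in replicate order. WT 1 and WT 2 were close to each other in both genes, WT 3 lay within the IL-33 KO range, and IL-33 KO 1 was lowest. The log2 fold changes were -1.19 ± 0.42 (adjusted p = 0.504) and -1.67 ± 0.44 (adjusted p = 0.402).

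IL-33 KO 1 was the lowest of all 6 libraries in 13 of 13 Lce1 genes and in 33 of the 58 tested genes of the complex. It was the lowest IL-33 KO library in 43 of the 58, and in 4735 of all 15720 tested genes. IL-33 KO 1 also had the lowest basal and suprabasal marker sums of the 6 libraries, 22362 and 11232 CPM. The genes Lce1a1, Lce1b, Lce1f and Lce1k had log2 fold changes of -1.16, -1.23, -1.08 and -1.62. Lce1m, singled out after its values were seen, was the exception: it had 15.4, 83.9 and 21.8 CPM in the knockout libraries 1, 2 and 3, against 70.5, 40.3 and 53.7 CPM in the wild-type libraries 1, 2 and 3. Its highest library was IL-33 KO 2 and its log2 fold change was -0.44 ± 0.57 (adjusted p = 0.821). Between 0% and 27.1% of the windows of Lce1 genes occur in another gene, with a median of 19.9%, so part of the likeness among them can come from shared reads, which was not tested.

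The Lce3 genes code for late envelope proteins that are known for a place in the repair of the barrier. All 6 were below 0, from -1.46 to -1.14 on the log2 scale, and 0 of 6 had an unadjusted p under 0.05. Lce3c, the most abundant, had 45.2, 57.2 and 112 CPM in the knockout libraries 1, 2 and 3, against 285, 145 and 43.6 CPM in the wild-type libraries 1, 2 and 3. Lce3f, with the largest difference, had 25.5, 27.8 and 51.5 CPM in the knockout libraries, against 187, 82.4 and 19.6 CPM in the wild-type libraries, in replicate order. In both, WT 1 stood far above WT 2, WT 3 was the lowest library, and IL-33 KO 3 was the highest of its group. The log2 fold changes were -1.14 ± 0.61 (adjusted p = 0.607) and -1.46 ± 0.68 (adjusted p = 0.574).

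Lce3b, Lce3d and Lce3e were at -1.36, -1.14 and -1.45 on the log2 scale, with SE of 0.68, 0.63 and 0.63. These SE were larger than those of Lce1a1, Lce1a2, Lce1b, Lce1f, Lce1k and Lce1l, at 0.39 to 0.45, and of Lce1m, at 0.57. From 12.1% to 49.3% of Lce3 windows, with a median of 39.7%, occur in another gene.

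The fused S100 genes carry an S100 domain before long repeats. Filaggrin (Flg) and hornerin (Hrnr) are filament and envelope proteins of the granular layer, and repetin (Rptn) is an envelope precursor. Flg had 473, 1140.4 and 895 CPM in the knockout libraries 1, 2 and 3, against 1383, 1751 and 889 CPM in the wild-type libraries 1, 2 and 3. Hrnr had 95.5, 336 and 281 CPM in the knockout libraries 1, 2 and 3, against 485, 593 and 199 CPM in the wild-type libraries 1, 2 and 3. Rptn had 549, 895 and 802 CPM in the knockout libraries 1, 2 and 3, against 2172, 2031 and 706 CPM in the wild-type libraries 1, 2 and 3. In all 3 genes IL-33 KO 1 was the lowest library. WT 3 was below IL-33 KO 2 in each and also below IL-33 KO 3. The log2 fold changes were -0.68 ± 0.35 for Flg (adjusted p = 0.601), -0.84 ± 0.51 for Hrnr (adjusted p = 0.637) and -1.13 ± 0.40 for Rptn (adjusted p = 0.504).

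Filaggrin-2 (Flg2), a relative of filaggrin, had 31.4, 117 and 26.7 CPM in the knockout libraries 1, 2 and 3, against 54.0, 72.5 and 88.9 CPM in the wild-type libraries 1, 2 and 3. IL-33 KO 2 was its highest library and the other IL-33 KO libraries its lowest. Its log2 fold change was -0.30 ± 0.52 (adjusted p = 0.869), and leaving out IL-33 KO 1, 2 or 3 turned it to -0.0026, -1.31 or 0.046. Cornulin (Crnn), the remaining fused S100 gene, had higher values in IL-33 KO, with 319.6, 172 and 122 CPM in the knockout libraries 1, 2 and 3, against 65.0, 87.8 and 99.9 CPM in the wild-type libraries 1, 2 and 3. All IL-33 KO values were above all WT values, and its log2 fold change was 1.28 ± 0.34 (adjusted p = 0.402). IL-33 KO 1, the library with the most hair follicle RNA by the marker sum above, was the highest library for Crnn, while the lowest was WT 1 for Crnn and WT 2 for the marker sum. The part of follicle content was not tested.

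**Figure D4:**
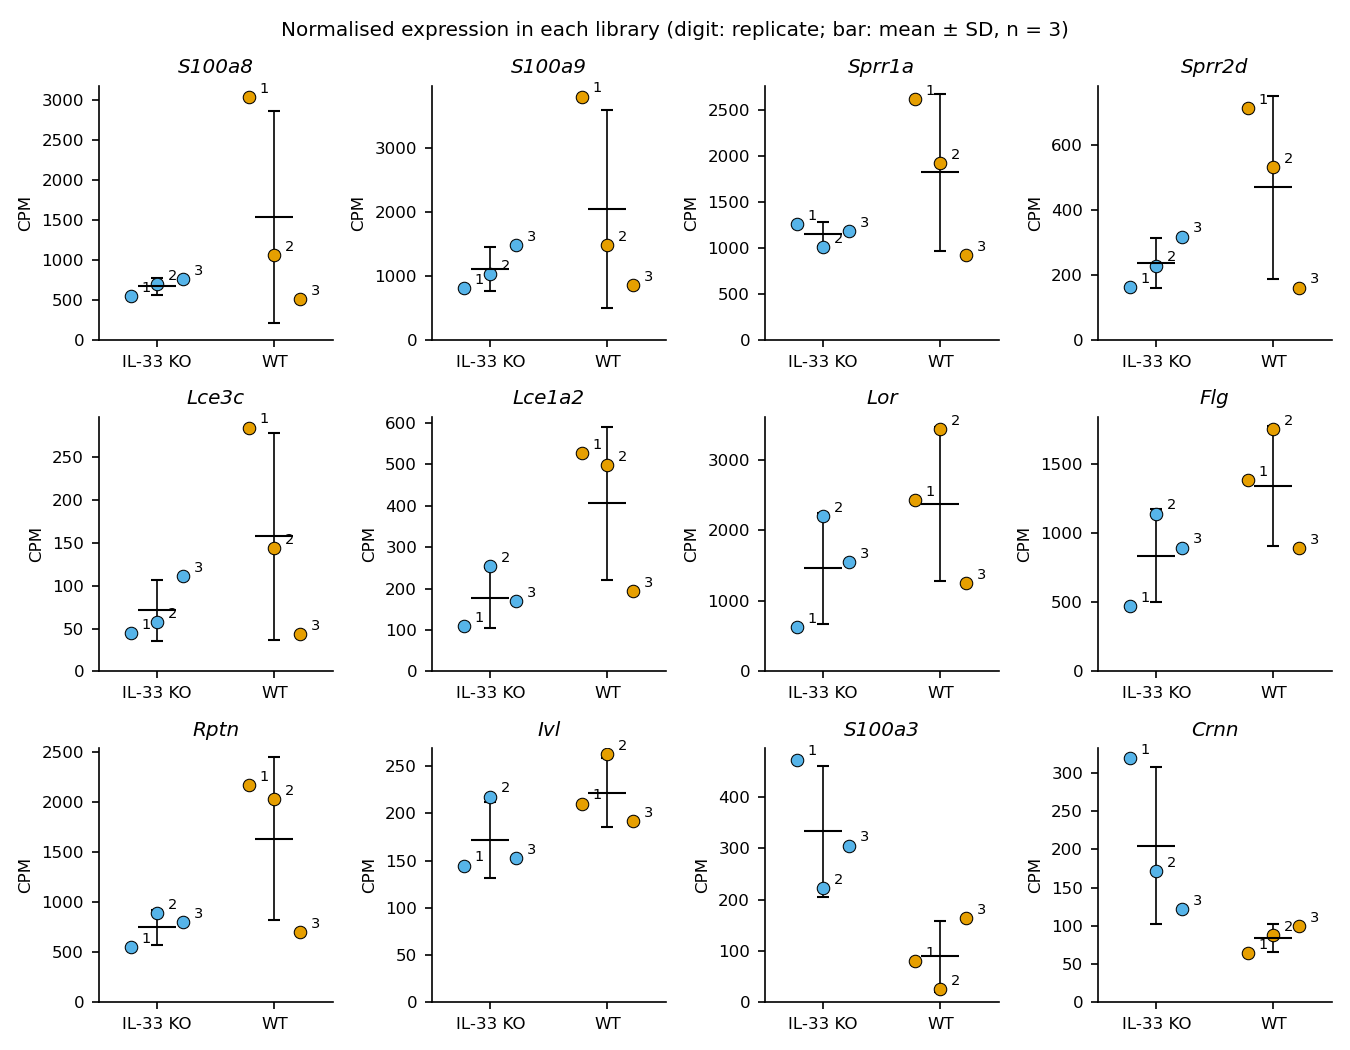
CPM of 12 genes of the complex in each library (circles, digit for the replicate), with the mean and SD of the 3 libraries of each genotype as bars, on axes that start at 0. WT 3 lies below all IL-33 KO libraries in S100a8, Sprr1a, Sprr2d and Lce3c and within their range in S100a9, Lce1a2, Lor, Flg, Rptn and Ivl, while in S100a3 and Crnn all IL-33 KO values are above all WT values.

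Among the single genes, loricrin (Lor), the main protein of the mature envelope, had 629, 2201 and 1552 CPM in the knockout libraries 1, 2 and 3, against 2431, 3436 and 1250.2 CPM in the wild-type libraries 1, 2 and 3. Involucrin (Ivl), an early scaffold of the envelope, had 145, 218 and 153 CPM in the knockout libraries 1, 2 and 3, against 210.2, 262 and 192 CPM in the wild-type libraries 1, 2 and 3. Loricrin ranged more widely than involucrin among the IL-33 KO libraries, and IL-33 KO 2 was near WT 1 for both. The log2 fold changes were -0.70 ± 0.49 (adjusted p = 0.678) and -0.37 ± 0.20 (adjusted p = 0.607). Kprp, a proline-rich protein of keratinocytes, was 128, 239 and 174 CPM in the knockout libraries, against 417, 393 and 163 CPM in the wild-type libraries, in replicate order, and Crct1 was 565, 554 and 513 CPM in the knockout libraries, against 1116, 906 and 445 CPM in the wild-type libraries, in replicate order. For both, WT 1 and WT 2 were above the IL-33 KO libraries, and WT 3 was below IL-33 KO 3. Their log2 fold changes were -0.85 ± 0.36 (adjusted p = 0.547) and -0.60 ± 0.30 (adjusted p = 0.596).

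The late gene Lce6a had a log2 fold change of -1.40 ± 0.45 (adjusted p = 0.473). Pglyrp3 and Pglyrp4, which bind bacterial cell walls, had -0.56 ± 0.20 (adjusted p = 0.506) and -0.55 ± 0.31 (adjusted p = 0.621). All 3 had their highest value in WT 1. Lelp1 had 1 count in WT 2 and none in the other libraries.

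Libraries of 1 genotype also differed in which subfamily was high. IL-33 KO 3 was above IL-33 KO 2 in 6 of 6 Lce3 genes, 12 of 15 Sprr genes and 11 of 12 S100a genes. The order was the opposite in 12 of 13 Lce1 genes, 5 of 5 fused S100 genes and 7 of 7 single genes. The median ratio of IL-33 KO 3 to IL-33 KO 2 was 1.96 in Lce3 genes and 0.694 in Lce1 genes, beside 1.00 over all genes. In WT, the median ratio of WT 1 to WT 2 was 2.25 in Lce3 genes and 1.11 in Lce1 genes. It was 0.790 in fused S100 genes, where WT 1 was above WT 2 in 1 of 5 genes. These are descriptions of single libraries, since replicates of a genotype have no order and no test applies.

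**Figure D5:**
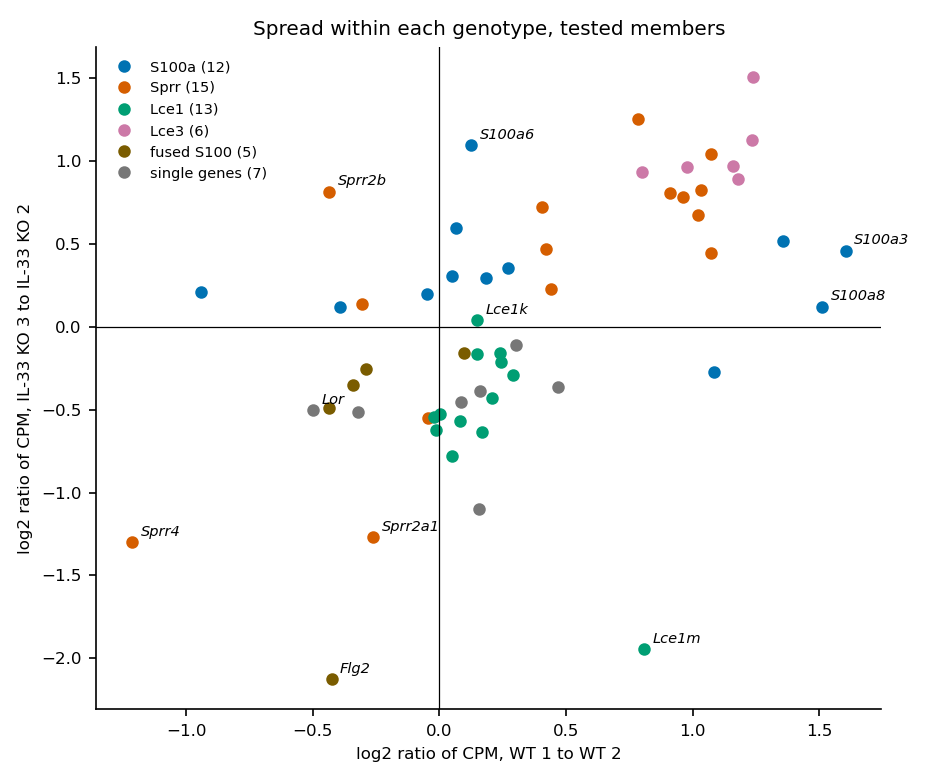
For each tested gene of the complex, the log2 ratio of CPM in IL-33 KO 3 to IL-33 KO 2 (vertical axis) against that in WT 1 to WT 2 (horizontal axis), coloured by subfamily. All 6 Lce3 genes are above 0 on both axes, and 12 of 13 Lce1 genes and all 5 fused S100 genes are below 0 for the IL-33 KO ratio.

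The distance of WT 3 from the mean of WT 1 and WT 2 also varied by subfamily. The median ratio was 0.176 in Lce3 genes, 0.288 in Sprr genes, 0.369 in Lce1 genes, 0.567 in fused S100 genes and 0.759 in S100a genes, beside 1.01 over all genes. The sebaceous gland sum was highest in WT 3 (3551 CPM, beside 1006 to 3224 CPM in the other 5 libraries), as was the fibroblast sum (22821 CPM). WT 3 had 18918 CPM of suprabasal markers, 26670 CPM of basal markers and 28806 CPM of the cornification partner genes listed below. In these sums it was the lowest WT library and lay within the IL-33 KO range. By mean log2 level, however, WT 2 was the lowest WT library for the basal markers. The part of these markers in the low values of WT 3 was not tested.

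Partner genes of cornification and regulators from lists of 30 and 32 genes were tested for comparison. Of the 30 partners (transglutaminases, keratins, proteases, lipid enzymes and others) 25 were lower and 5 higher, 0 passed, and the median log2 fold change was -0.42. Among them Padi3, an enzyme that converts arginine to citrulline, had 1.96 ± 0.44 (adjusted p = 0.329) and Padi1, of the same family, had 1.25 ± 0.36 (adjusted p = 0.440), both higher in IL-33 KO in all 3 libraries. Of the 32 regulators 21 were lower and 11 higher, 0 passed, and the median was -0.09. Gata3, a transcription factor of keratinocytes and lymphocytes, had 0.76 ± 0.16 (adjusted p = 0.302) and Foxn1, a factor of hair and keratinocyte differentiation, had 0.82 ± 0.18 (adjusted p = 0.315).

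Of 5 tested further genes of the chromosome 3 region, 3 were higher and 2 lower. Tchh, the trichohyalin gene of the hair root sheath and a fused S100 gene that the naming rule for the complex did not take in, had 9412, 5199 and 4057 CPM in the knockout libraries 1, 2 and 3, against 1524, 1024 and 2635 CPM in the wild-type libraries 1, 2 and 3. No WT value reached the lowest IL-33 KO value, and its log2 fold change was 1.85 ± 0.43 (adjusted p = 0.356). Them5 had -1.04 ± 0.33 (adjusted p = 0.473). Tchh, Padi3 and Foxn1 are also among the hair follicle markers. Of the 7 suprabasal markers 7 were lower, as were 7 of 7 hyperproliferative markers and 6 of 8 basal markers, and the part of the amount of differentiated epidermis per sample in the values of the complex was not tested.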

How the data were processed

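The authors deposited whole-number read counts per gene and FPKM values for 35275 genes in the 6 libraries, made with STAR and RSEM on mm10 per the submitters' processing notes, which give no versions. Dividing each count by the gene length and the total count gives the deposited FPKM values, to a relative difference of at most 2.782e-07. The treatment of strand, and of reads from close copies, is one that the sources used here do not give.

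The test of the counts used edgeR 4.0.16 under R 4.3.3: filterByExpr by genotype (15720 genes, 99.9% of counts), TMM scaling, and the two-sided quasi-likelihood test (glmQLFit with robust=FALSE) with Benjamini-Hochberg adjustment over all tested genes and a threshold of 0.05. SE were derived from the F statistic. CPM are counts scaled to the TMM-adjusted library size in edgeR's usual unit. The biological coefficient of variation was 21.3%, and the depth of 20459574 to 24359612 counts gave every tested gene of the complex at least 38 counts per library. The test was tried on simulated counts before use. Every 2 libraries differed by more than sampling noise (chi-square of at least 31.7 per degree of freedom). Every value column belonged to 1 of the 6 libraries.

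The genes of the complex and the lists were chosen with earlier results of these data known. Named were Il33, every fused S100 and single gene tested, and in the other subfamilies the 4 most abundant by FPKM, the 2 with the smallest p and the largest change in each direction, besides S100a3, S100a8, S100a9 and the 2 with the smallest p in each list of partner genes. Other genes were named after their values were seen. Promoter windows came from RefSeq (GRCm38.p6), and 50-base windows of GENCODE M21 transcripts were compared between genes for 61 of 62 genes. Alternatives were other scalings, filters and tests (DESeq2 1.42.0, limma 3.58.1 as limma-voom and as limma-trend on log2(FPKM + 1) or log2(FPKM + 0.1)), the replicate number as a block, and each library left out. Figures were drawn with matplotlib 3.10.9.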

Additional observations from a re-analysis of the deposited data

How the results depend on the processing

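Of the 58 tested genes of the complex, 55 kept the direction of their log2 fold change in all 18 alternatives tried, and the other 3 were Flg2, S100a1 and S100a13. Flg2 turned to 0.046 when IL-33 KO 3 was left out and ranged down to -1.31 when IL-33 KO 2 was. The number of genes of the complex that passed was 0 with every scaling, filter and limma test tried and at a threshold of 0.1, 6 with DESeq2, and 0 to 3 when 1 library was left out, the 3 coming without WT 3. Over all genes 3 passed in edgeR, 206 in DESeq2, 33 with no filter, 11 in limma-voom, 5 with total counts or upper quartile scaling, 6 to 15 in limma-trend and 2 to 24 when 1 library was left out. The cause of these differences was not tested.

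IL-33 KO libraries all below WT were found in 1 gene of the complex, and in 2 with total counts, with log2(FPKM + 1), with log2(FPKM + 0.1) and with log2(FPKM + 1) unfiltered. The share of all genes with this order was 3.57% with total counts and 3.06% to 3.73% on the FPKM scales. Leaving out 1 library gave 1 to 45: 2, 13 and 5 on leaving out the knockout libraries 1, 2 and 3, 2 on leaving out WT 1 and 45 on leaving out WT 3, each comparison then having fewer values to order. The shares of all genes were 9.66%, 10.8%, 14.1%, 11% and 18.3% in the same order, so the counts of 2 and 5 lay below the background share of the 58 genes. The median of the fused S100 genes ranged from -1.18 (without IL-33 KO 2) to -0.40 (without IL-33 KO 1). The Lce3 median went from -1.37 to -0.45 without WT 1 and the Sprr median from -0.88 to -0.45.

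With the replicate number as a replicate block 0 genes of the complex and 2 genes over all passed, 54 were lower, and the Lce1 median was -1.21, with the Lce3 median nearer 0 at -1.10. Deviations of same-numbered libraries correlated at -0.26, -0.12 and -0.38, which gave no sign of pairing. These correlations cannot show whether same-numbered libraries were handled together.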

Other observations

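Ratios within a library do not depend on its scaling. The summed CPM of Lce3 genes was 0.284, 0.152 and 0.445 of the Lce1 sum in IL-33 KO 1, 2 and 3, and 0.402, 0.206 and 0.154 of it in WT 1, 2 and 3. The genotypes overlapped, with IL-33 KO 3 and WT 1 highest. The Sprr2 sum was 0.787, 0.465 and 0.999 of the Lce1 sum in IL-33 KO and 0.722, 0.522 and 0.456 of it in WT, in replicate order, and again overlapped. Lor stood at 0.235, 0.274 and 0.209 of Krt10, a keratin of the suprabasal layers, in IL-33 KO, and at 0.311, 0.332 and 0.204 in WT, so WT 3 was the lowest library by that ratio too.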
